A study of Rattus norvegicus with 20 samples.

Results

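The data are the 6 arrays of liver taken at the start of 70% partial hepatectomy, in a series of 20 chromatin immunoprecipitation arrays (ChIP-chip) for the p65 subunit of NF-kB in rats. They were chosen by diet and time alone: 3 arrays of ethanol-fed rats (ETOH) and 3 arrays of carbohydrate-fed rats (CHO), all at 0h. ETOH rats took a liquid diet with 36% of calories as ethanol for 5 weeks, and CHO rats were pair-fed littermates whose carbohydrate matched those calories. Both groups were male wild-type Sprague Dawley rats of 8 to 10 weeks. The tissue was the left lateral and median lobes, taken out by the operation itself. The other 14 arrays held liver at 1h (3 ETOH, 3 CHO) and 6h (4 ETOH, 4 CHO). They entered here in the choice of each promoter's window, the shared estimate of spread, the correlations of ETOH replicate 2 and the last comparisons. Gene names, listed starts and the base of all shares of genes with a peak also came from the peak lists of all 20 arrays. The 6 animal identifiers at 0h were all different, and 4 of these animals also gave a later array. Whole liver was used, with no sorting of cell types, so a change in cell makeup and a change in binding within a cell type cannot be told apart.

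NF-kB is a family of dimeric transcription factors, and p65 (Rela) is its main activating subunit. In resting cells inhibitors such as IκBα hold the dimer in the cytoplasm. Endotoxin, TNF and interleukin 1 free it through the IκB kinase complex, and it then enters the nucleus and binds short DNA sites near genes of inflammation, survival and its own inhibition. In the liver it acts in hepatocytes and Kupffer cells, and chronic ethanol is known to raise the endotoxin that reaches the liver from the gut.

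Each array tiled 14723 regions around gene starts with 713735 probes, about 1 every 100 bp over a median of 5275 bp. The deposited value of a probe is a log ratio of the Cy5 to the Cy3 channel. The labels put p65-precipitated DNA in Cy5. The Cy3 channel is labelled as input DNA, but the labelling protocol names DNA from a normal rabbit IgG precipitation, and the labels do not settle which was used. The peaks that the authors called lay below 0 in these values, at 99.9% to 100% of peaks on each of the 6 arrays. All values below were therefore multiplied by -1 and centred on the array's median, so that a higher value means more signal at called peaks; the scale and direction of the deposited ratios are not stated in the labels, and log2 is taken from their range. The signal of a promoter is the mean over the 500 bp window of its region, with at least 4 probes, that was highest on average over all 20 arrays. In all, 14540 promoters had such a window.

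ETOH replicate 2 stood apart from the other arrays. The median absolute deviation of its probes was 0.364 log2, against 0.157 and 0.167 for ETOH replicates 1 and 3 and 0.190, 0.156 and 0.196 for the CHO arrays. It shared its slide with arrays of 1h, and its promoter signal correlated at 0.75 with the 1h array of the same animal and at 0.69 with a CHO array of 1h on that slide. With the 5 other arrays of 0h its correlation was -0.12 to 0.25. The other 5 arrays came from consecutively numbered slides in 2 series. ETOH replicate 1 and CHO replicates 1 and 2 lay in the first series, ETOH replicate 3 and CHO replicate 3 in the second. These correlations are across promoters of single arrays and share the tiling and its base composition. The mean correlation was 0.21 among ETOH arrays and 0.39 among CHO arrays, against 0.29 between diets. Without ETOH replicate 2 it was 0.41 for the ETOH pair and 0.40 between diets. CHO replicates 1 and 2 correlated at 0.63, and ETOH replicate 3 and CHO replicate 3, of different diets on neighbouring slides, at 0.58. Because of this, differences are given below with and without ETOH replicate 2.

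**Figure D1:**
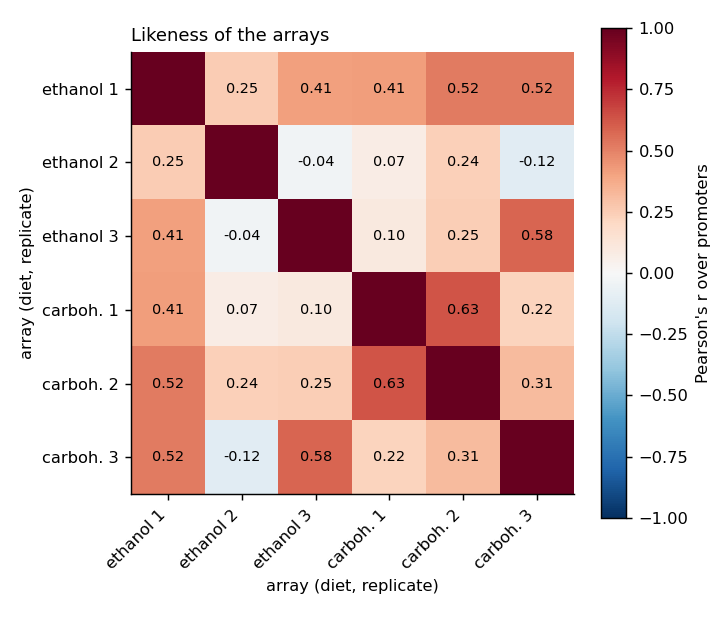
Pearson correlation of promoter signal over 14540 promoters between the 6 arrays of 0h. ETOH replicate 2 has the palest row, between -0.12 and 0.25, and the pair ETOH replicate 3 and CHO replicate 3 reaches 0.58 across diets.

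The central comparison asks where p65 binding in the liver differed after 5 weeks of ethanol, before the operation. No promoter passed. With limma over 14540 promoters, 0 had an adjusted p under 0.05, and the lowest adjusted p was 0.458. At an unadjusted p under 0.05, 1114 promoters differed, where 727 would be 5% of all tested. Of these, 920 were higher in ETOH (6.33% of promoters) and 194 were lower (1.33%). ETOH replicate 2 was the highest of the 6 arrays at 796 of the 920 and the lowest at 139 of the 194. Over all promoters it was the highest at 6408 (44.1%), and its share as the lowest is not given here. Without ETOH replicate 2, 0 promoters passed and the counts at an unadjusted p under 0.05 became 226 higher and 128 lower. When the arrays were also scaled to the same spread, the counts at that level were 1132 higher and 289 lower. The total at that level was 593 without CHO replicate 1, 1824 without CHO replicate 3 and 1995 without ETOH replicate 3. It was 648 (563 higher, 85 lower) when the 6 arrays of 0h were fitted alone, 571 (388 higher, 183 lower) with run as a term and 619 (453 higher, 166 lower) with slide series as a block, each fewer than 727. With limma's array weights it was 2066 (1813 higher, 253 lower). Run and slide series were inferred here from file names and were not taken from the labels. At 0h the run term sets only ETOH replicate 2 apart. Since the direction of the deposited ratios is not stated, the fit was also made with their sign kept and the windows chosen in that direction, where 0 passed, and the deposited ratio was higher in ETOH at 310 promoters and lower at 156 (466 in all) at an unadjusted p under 0.05. The median difference over all promoters was 0.06 log2, with a median standard error of 0.14, and it was 0.02 without ETOH replicate 2. It was -0.0018 when the mean of the whole tiled region replaced the window. ETOH arrays lay wholly above CHO arrays at 931 promoters (6.4%) and wholly below them at 435 (2.99%), which is 9.39% of promoters in either direction.

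The promoters with the smallest p among those higher in ETOH held genes of several tissues, and none passed the test. The smallest p was that of Pbld1, which codes for a phenazine biosynthesis-like domain protein. Its signal was 0.01, 1.00 and 0.12 log2 in the ETOH arrays, against -0.63, -0.35 and -0.47 in the CHO arrays. All ETOH arrays lay above all CHO arrays, and every CHO array was below its own median. The difference was 0.86 ± 0.18 log2 (SE, n = 3 each; 95% interval 0.50 to 1.22; limma adjusted p = 0.458), and it was 0.55 without ETOH replicate 2. With a 1000 bp window it was 0.46, and over the tiled region 0.20. Errors after ± on all differences are standard errors from the limma fit. The 500 bp window lies at -3675 bp from the listed start (upstream), at chr20:25410113-25410523 in the files' coordinates, whose build is not given in the sources used here.

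Gabarapl1, which codes for an ATG8-family protein of autophagosome membranes, had the largest difference of all 14540 promoters. Its signal was 0.21, 1.30 and 0.18 log2 in ETOH arrays, against -0.60, -0.04 and -0.28 in CHO arrays. The groups did not overlap, but ETOH replicate 2 stood more than 1 log2 above the other ETOH arrays. The difference was 0.87 ± 0.22 (SE; limma adjusted p = 0.612), and 0.50 without that array. With a 1000 bp window it was still 0.87, and over the tiled region 0.06. Gjd2, the connexin of neuronal gap junctions, had 0.10, 1.08 and 0.57 in ETOH arrays, against -0.16, -0.05 and -0.23 in CHO arrays. Its groups did not overlap either, and ETOH replicate 2 was again the highest array. The Gjd2 difference was 0.73, and 0.48 without ETOH replicate 2. With a 1000 bp window it was 0.51, and over the tiled region 0.06.

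Ntn4 and Defb40 depended less on ETOH replicate 2. Ntn4, which codes for the basement membrane protein netrin 4, had 0.56, 0.78 and 0.60 log2 in ETOH arrays, against -0.17, 0.12 and 0.23 in CHO arrays. The 3 ETOH arrays lay close together and above all CHO arrays, and the difference of 0.59 was still 0.52 without ETOH replicate 2. Defb40, a beta-defensin gene, had 0.31, 0.50 and 0.17 in ETOH arrays, against -0.16, -0.47 and -0.06 in CHO arrays. Here too the groups did not overlap, and the difference was 0.56, or 0.47 without the outlying array. With a 1000 bp window the Defb40 difference was 0.48, and over the tiled region 0.17. Cd7, a surface protein of T cells, had 0.59, 0.91 and 0.35 in ETOH arrays, against -0.62, -0.31 and 0.42 in CHO arrays, so that CHO replicate 3 overlapped the ETOH arrays. Within the first slide series its difference was 1.05, and within the second -0.07. With a 1000 bp window the Cd7 difference was 0.47, and over the tiled region 0.17.

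The remaining promoters of this kind were those of Lyc2 and RGD1306474 (1 shared region), Or2t6, Rbp2 and Tmem150c. At the lysozyme gene Lyc2 the signal was 0.15, 0.80 and 0.38 log2 in ETOH arrays, against -0.32, -0.08 and -0.29 in CHO arrays. Rbp2, a cellular retinol-binding protein, had 0.16, 0.86 and -0.04 in ETOH arrays, against -0.57, -0.33 and -0.09 in CHO arrays. Or2t6, an olfactory receptor gene, had 0.23, 0.76 and 0.37 in ETOH arrays, against -0.60, -0.06 and 0.08 in CHO arrays. At none of the 3 did the diets overlap, and ETOH replicate 2 was the highest array at each. Tmem150c had 0.28, 1.26 and 0.58 in ETOH arrays, against -0.01, -0.11 and 0.01 in CHO arrays, which all lay close to 0. The difference was 0.66 at Rbp2 and 0.75 at Tmem150c, or 0.39 and 0.47 without ETOH replicate 2. At Or2t6 it was 0.65, with 0.45 in a 1000 bp window and 0.04 over the tiled region. At Tmem150c it was 0.65 with a 1000 bp window and 0.21 over the tiled region.

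**Figure D2:**
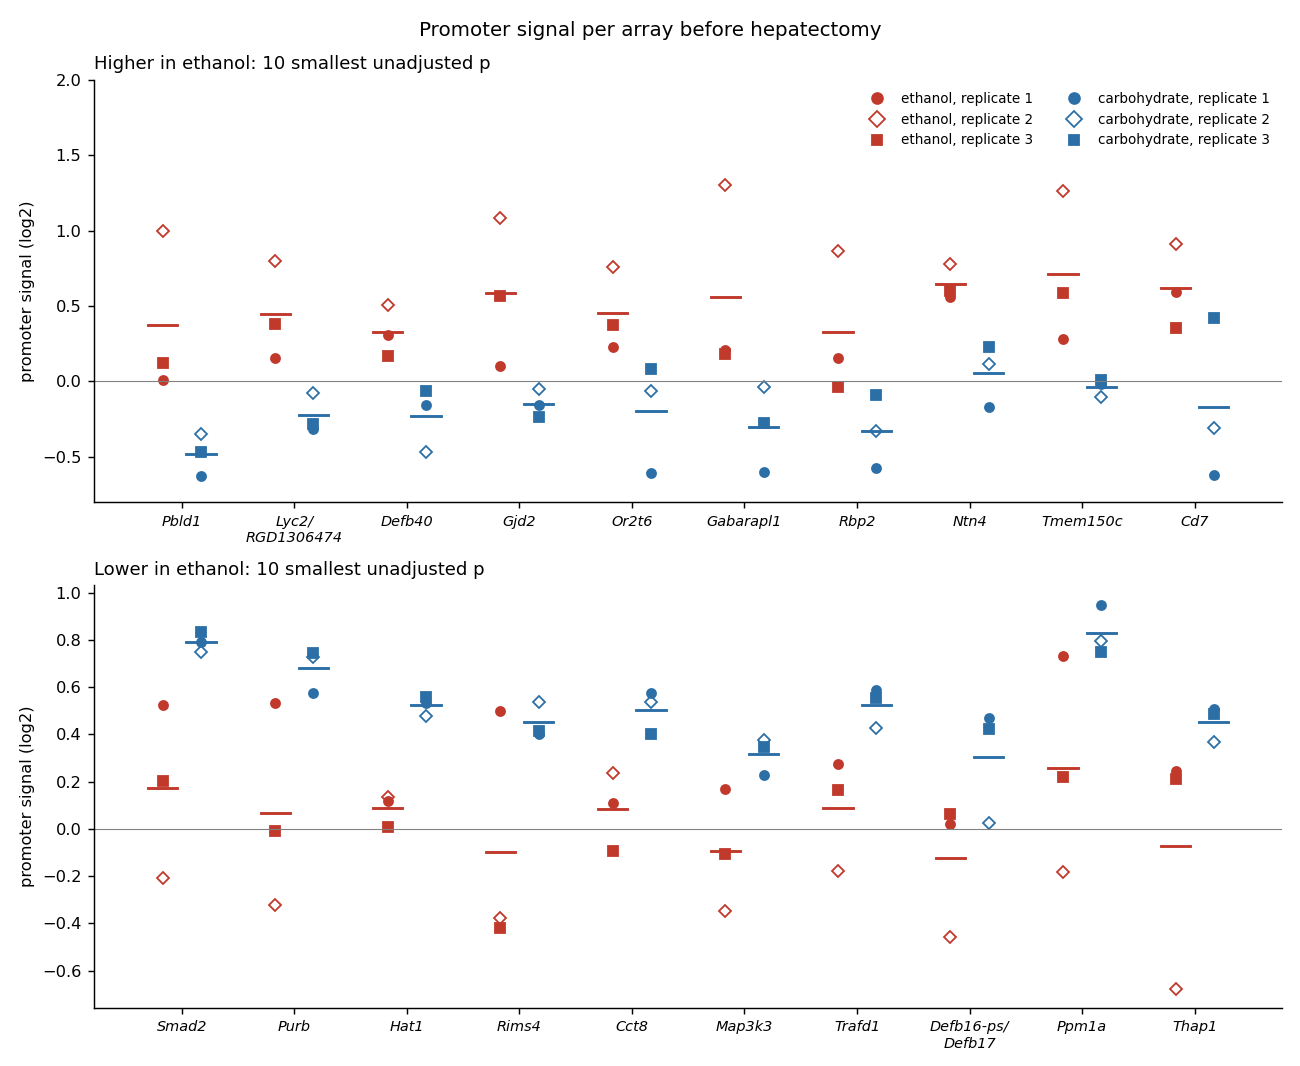
Signal (log2, centred on each array's median) at the 10 promoters with the smallest p among those higher in ETOH and the 10 among those lower, 1 point per array, ETOH left of CHO, with a bar at each group mean. The diets do not overlap at 9 of the 10 higher and 8 of the 10 lower promoters, and ETOH replicate 2 is often the extreme point, as at Gabarapl1 with 1.30. The promoters were chosen by p on these same 6 arrays, so the lack of overlap largely follows from the choice. Over all promoters, ETOH arrays lay wholly above CHO arrays at 6.4% and wholly below them at 2.99%.

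Among the promoters with the smallest p that were lower in ETOH none passed the test either. Smad2, which carries TGF-beta signals to the nucleus, had 0.52, -0.21 and 0.20 log2 in ETOH arrays, against 0.79, 0.75 and 0.83 in CHO arrays. The 3 CHO arrays lay close together, and the ETOH arrays were spread below them. The difference was -0.62 ± 0.16 (SE, n = 3 each; 95% interval -0.95 to -0.28; limma adjusted p = 0.612), and -0.43 without ETOH replicate 2. Hat1, a histone acetyltransferase of newly made histones, had 0.12, 0.13 and 0.01 in ETOH arrays, against 0.53, 0.48 and 0.56 in CHO arrays. Both diets were tight here and did not overlap. Its difference was -0.43 ± 0.12, -0.46 without ETOH replicate 2, -0.39 within the first slide series and -0.55 within the second. With a 1000 bp window it was -0.25, and over the tiled region -0.04.

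Cct8, a subunit of the CCT chaperonin that folds actin and tubulin, was similar to Hat1. It had 0.11, 0.24 and -0.09 log2 in ETOH arrays, against 0.57, 0.54 and 0.40 in CHO arrays, with a difference of -0.42 and of -0.50 without ETOH replicate 2. With a 1000 bp window the Cct8 difference was -0.07, and over the tiled region -0.16. Purb, a regulator that binds purine-rich DNA, had 0.53, -0.32 and -0.01 in ETOH arrays, against 0.57, 0.73 and 0.75 in CHO arrays. Its ETOH replicate 1 came near the CHO arrays while the other ETOH arrays did not. Map3k3, a kinase upstream of MAP kinases that can also feed into NF-kB, had 0.17, -0.35 and -0.11 in ETOH arrays, against 0.23, 0.38 and 0.35 in CHO arrays. Its difference was -0.41, -0.29 without ETOH replicate 2, -0.06 with a 1000 bp window and -0.04 over the tiled region. Trafd1, a TRAF-type zinc finger protein that restrains innate immune signals, had 0.28, -0.18 and 0.17 in ETOH arrays, against 0.59, 0.43 and 0.55 in CHO arrays. These 4 promoters did not overlap between diets.

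Ppm1a, a phosphatase whose substrates include SMAD proteins, had 0.73, -0.18 and 0.22 log2 in ETOH arrays, against 0.95, 0.79 and 0.75 in CHO arrays. Thap1, a zinc finger DNA-binding factor, had 0.24, -0.68 and 0.21 in ETOH arrays, against 0.51, 0.37 and 0.49 in CHO arrays, and its difference of -0.53 was -0.23 without ETOH replicate 2. ETOH replicate 2 was the lowest array at both. Rims4, a synaptic protein, had 0.50, -0.38 and -0.42 in ETOH arrays, against 0.40, 0.54 and 0.41 in CHO arrays, and ETOH replicate 1 lay within the CHO range. Within the first slide series the Rims4 difference was 0.03, and within the second -0.83. The region shared by Defb16-ps and Defb17 overlapped between diets, with 0.02, -0.46 and 0.06 in ETOH arrays, against 0.47, 0.03 and 0.42 in CHO arrays.

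A few of these promoters did pass under another processing. With all arrays scaled to the same spread, 4 promoters passed, all higher in ETOH: Pbld1 (adjusted p = 0.00324), Lyc2/RGD1306474 (0.0339), Defb40 (0.0482) and Gjd2 (0.0482), all by limma. The same 4 passed after quantile normalization. With a 1000 bp window, without scaling, the Lyc2/RGD1306474 difference turned sign, to -0.03. With limma's array weights, which gave ETOH replicate 2 a weight of 0.258 and ETOH replicate 1 a weight of 2.24, 9 passed, all higher, among them Cd7 (adjusted p = 0.0103), Defb40 (0.0299) and Pbld1 (0.0348). Without ETOH replicate 1, 6 passed, of which 3 were lower, Purb (adjusted p = 0.0348) and Rims4 (0.00423) among them. With arrays scaled but without ETOH replicate 2, 0 passed (lowest limma adjusted p = 0.144). In that setting 1132 promoters were higher and 289 lower at an unadjusted p under 0.05. The split of promoters at an unadjusted p under 0.05 was 1081 higher and 439 lower after scaling, and 379 higher and 470 lower when the mean of the whole tiled region replaced the window.

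Known NF-kB target genes were the first group of interest, and at their promoters the counts were near those of all promoters. Of 45 target genes, 37 were measured, at 36 promoters. None passed, 3 were higher and 0 lower at an unadjusted p under 0.05 (8.33% higher, beside 6.33% of all promoters), and the median difference was 0.10 log2, beside 0.06 for all promoters. Without ETOH replicate 2 the median was 0.04, beside 0.02. Ccl5, the chemokine RANTES, had 0.36, 0.89 and 0.29 log2 in ETOH arrays, against -0.03, -0.09 and 0.25 in CHO arrays. Its groups did not overlap, but ETOH replicate 3 and CHO replicate 3 lay close together. The difference was 0.47 ± 0.16 (SE, n = 3 each; 95% interval 0.16 to 0.79; limma adjusted p = 0.612), and 0.29 without ETOH replicate 2. Irf1, a transcription factor of interferon responses, had 0.24, 1.01 and 0.37 in ETOH arrays, against 0.04, 0.04 and 0.23 in CHO arrays, with a difference of 0.44 and of 0.20 without ETOH replicate 2. Traf2, an adaptor of TNF receptors, had 0.26, 1.31 and 0.12 in ETOH arrays, against -0.04, 0.28 and 0.35 in CHO arrays. Its difference of 0.37 came to -0.01 without ETOH replicate 2.

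Nfkbia, which codes for IκBα and is a classical p65 target, did not differ beyond the spread of the arrays. Its signal was 0.36, 0.20 and 0.48 log2 in ETOH arrays, against 0.01, 0.25 and 0.75 in CHO arrays. The lowest and the highest array were both CHO. The difference was 0.01 with a 95% interval of -0.39 to 0.40. The region shared by Lta and Tnf, the genes of lymphotoxin and TNF, had -0.04, 0.54 and -0.08 in ETOH arrays, against -0.01, -0.09 and -0.17 in CHO arrays. Apart from ETOH replicate 2 every array was below its median there, and the difference of 0.23 was 0.03 without that array.

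Textbook NF-kB sites lie close to the start of several of these genes, and 5 of them with a measured start are shown here so that the array signal there can be set beside them. The sequences are RefSeq promoters of the rat assembly GRCr8, written 5′ to 3′ on the strand of the gene, with matches to the NF-kB consensus in capitals. The NF-kB consensus, known by name as the kappa B site, was searched on both strands from 250 bases before to 50 after the start.
Nfkbia, chr6:78597073-78597143 (-): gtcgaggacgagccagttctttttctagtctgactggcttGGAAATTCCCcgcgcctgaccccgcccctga
Cxcl1, chr14:17479365-17479444 (-): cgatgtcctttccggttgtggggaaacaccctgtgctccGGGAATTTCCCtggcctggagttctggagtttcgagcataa
Irf1, chr10:38417830-38417909 (+): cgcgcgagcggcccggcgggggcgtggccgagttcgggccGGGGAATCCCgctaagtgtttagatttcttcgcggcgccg
Nfkb2, chr1:255108314-255108373 (+): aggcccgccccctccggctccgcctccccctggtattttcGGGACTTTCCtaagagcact
Ccl20, chr9:91837030-91837109 (+): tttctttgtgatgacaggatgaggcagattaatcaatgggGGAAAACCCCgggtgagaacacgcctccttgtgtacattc
Nfkbia codes for a feedback inhibitor of NF-kB, Cxcl1 and Ccl20 for chemokines, and Nfkb2 for the p100 precursor of an NF-kB subunit. The capitals in Cxcl1 are 2 matches that overlap, shifted by 1 base. The consensus was found in 18 of the 34 target genes with a RefSeq promoter (52.9%), beside 1142 of all 27457 promoters (4.16%). A match is a description of the letters and does not show a bound site.

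The array signal over these short promoters was near the array's median in both diets. In 15 target genes with the consensus and a measured start, the median signal from 250 bp before to 50 bp after the listed start was -0.05, 0.10 and -0.08 log2 in ETOH arrays, against -0.04, 0.06 and -0.09 in CHO arrays. Over all 14211 genes the same medians were -0.04, -0.05 and -0.11 in ETOH arrays, against -0.05, 0.03 and -0.10 in CHO arrays. At the Nfkbia promoter the values were 0.04, 0.22 and -0.19 in ETOH arrays, against 0.04, 0.06 and 0.02 in CHO arrays. At Cxcl1, with its overlapping matches, they were -0.05, 0.02 and 0.01 in ETOH arrays, against -0.22, 0.05 and -0.24 in CHO arrays. Neither promoter separated the diets. At Nfkb2 they were -0.08, -0.45 and -0.30 in ETOH arrays, against -0.23, 0.15 and -0.32 in CHO arrays, and at Irf1 -0.07, 0.14 and -0.21 in ETOH arrays, against 0.23, 0.20 and -0.16 in CHO arrays. At Ccl20 they were -0.03, -0.17 and -0.24 in ETOH arrays, against -0.02, 0.06 and -0.01 in CHO arrays. The Irf1 window with the larger signal, given above, lies away from the printed site. Of the 15 genes, 1 had a called peak over this stretch on any of the 6 arrays (6.67%), beside 2936 of all 14211 genes (20.7%). That gene was Lta, with a peak on ETOH replicate 2 alone (score 0.799, false discovery rate 0.0763). Among all genes, a peak there was found at 16.6% of 501 with the consensus and at 21.0% of 10848 without it. The starts in the deposited lists can differ from RefSeq's, so the window may sit some bases away from the printed sequence. This reading of the start was added after the data had been seen.

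**Figure D3:**
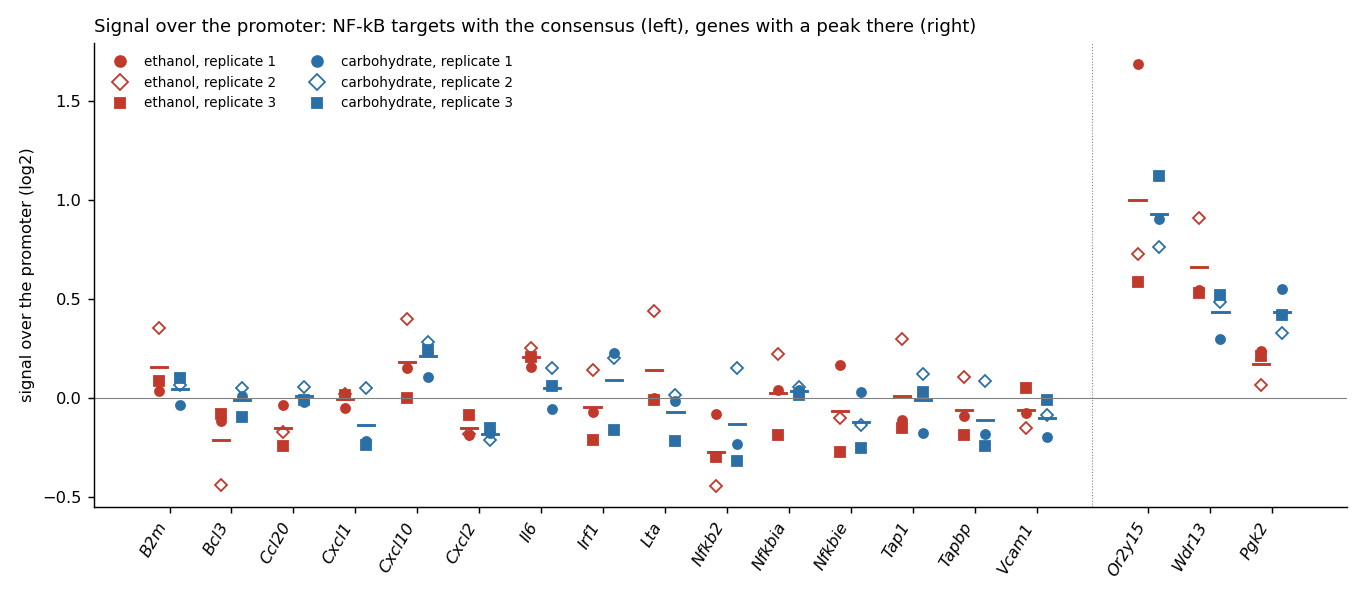
Signal (log2) from 250 bp before to 50 bp after the listed start, 1 point per array, ETOH left of CHO, for NF-kB targets with the consensus (left of the dotted line) and for 3 genes with a called peak there (right). Most target points lie around 0, as at Nfkbia, whereas Or2y15 reaches 1.69.

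In the signalling pathway above NF-kB, 21 promoters were measured and none passed. At an unadjusted p under 0.05, 1 was higher and 1 lower (4.76% each, beside 6.33% higher and 1.33% lower of all promoters). The median difference was 0.03 log2, and it was -0.03 without ETOH replicate 2 and -0.03 with the arrays scaled. Tab1, a partner of the kinase TAK1, had 0.16, 1.33 and -0.03 log2 in ETOH arrays, against 0.31, 0.14 and 0.01 in CHO arrays. There the difference of 0.33 rested on ETOH replicate 2 and was -0.09 without it.

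Receptors and adaptors of endotoxin and TNF came next, with 26 promoters. None passed, and 3 were higher and 0 lower at an unadjusted p under 0.05 (11.5% higher, beside 6.33%), with a median of 0.11 log2, or 0.05 without ETOH replicate 2. Tnfrsf1a, the main TNF receptor, had 0.25, 1.44 and -0.21 log2 in ETOH arrays, against 0.00, 0.19 and -0.05 in CHO arrays. ETOH replicate 3 was the lowest of the 6, and the difference of 0.45 became -0.02 without ETOH replicate 2. Il10ra, a receptor chain of the anti-inflammatory interleukin 10, kept its groups apart with 0.18, 0.32 and 0.03 in ETOH arrays, against -0.04, -0.37 and -0.10 in CHO arrays. Its difference was 0.35, and 0.28 without ETOH replicate 2. Ticam2, an adaptor of the endotoxin receptor TLR4, had 0.70, 0.71 and 0.33 in ETOH arrays, against 0.02, 0.17 and 0.41 in CHO arrays, with CHO replicate 3 inside the ETOH range.

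The genes that handle ethanol showed no difference that passed. Of 13 alcohol metabolism promoters, 0 reached an unadjusted p under 0.05 in either direction, beside 6.33% higher and 1.33% lower of all promoters. Their median difference was 0.13 log2, and -0.01 without ETOH replicate 2. Aldh2, the mitochondrial enzyme that clears acetaldehyde, had 0.29, 1.11 and 0.19 log2 in ETOH arrays, against 0.26, 0.36 and 0.17 in CHO arrays. Without ETOH replicate 2 the arrays of the diets interleaved, and the difference of 0.27 came to -0.02. Cyp2e1, the cytochrome P450 that ethanol is known to induce, had 0.15, 0.14 and 0.08 in ETOH arrays, against -0.22, -0.08 and 0.27 in CHO arrays. CHO replicate 3 was the highest array, and the 95% interval of the difference was -0.14 to 0.40. Adh4, an alcohol dehydrogenase, and Aldh3a2, a fatty aldehyde dehydrogenase, had differences of 0.24 and 0.18. They were 0.15 for Adh4 and -0.11 for Aldh3a2 without ETOH replicate 2. Adh1 was not analysed here.

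Drug metabolism, oxidative stress and the unfolded protein response also held no promoter that passed. Among 24 drug and xenobiotic promoters, 1 was higher (4.17%, beside 6.33% of all promoters) and 0 lower (beside 1.33%) at an unadjusted p under 0.05. This was Abcb11, the bile salt export pump, with 0.24, 0.31 and 0.50 log2 in ETOH arrays, against -0.24, -0.24 and 0.45 in CHO arrays. CHO replicate 3 overlapped the ETOH arrays, and the difference was 0.36. Por, which passes electrons to cytochromes P450, had a difference of 0.37, and of 0.07 without ETOH replicate 2. Nr1i3, the xenobiotic receptor CAR, had 0.33, and 0.08 without it. Among 25 oxidative and metal stress promoters 0 reached an unadjusted p under 0.05, beside 6.33% higher and 1.33% lower of all promoters. Sod1, the copper and zinc superoxide dismutase, had 0.39, 0.22 and 0.27 in ETOH arrays, against 0.43, 0.49 and 0.87 in CHO arrays. The groups did not overlap, the difference was -0.31 ± 0.16 and it was -0.27 without ETOH replicate 2. With a 1000 bp window the Sod1 difference was -0.01, and over the tiled region -0.05. Hamp, the iron hormone hepcidin, had a difference of 0.26, and 0.02 without that array.

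Among 16 unfolded protein response promoters, 2 were higher and 0 lower at an unadjusted p under 0.05 (12.5% higher, beside 6.33%). Atf4, the transcription factor of the integrated stress response, had 0.32, 1.20 and 0.23 log2 in ETOH arrays, against -0.04, 0.21 and 0.12 in CHO arrays. Hsp90b1, a chaperone of the endoplasmic reticulum, had 0.15, 0.84 and 0.25 in ETOH arrays, against -0.05, 0.05 and 0.06 in CHO arrays. At both genes all ETOH arrays lay above all CHO arrays, narrowly. The differences were 0.48 for Atf4 and 0.39 for Hsp90b1, and 0.17 and 0.18 in the same order without ETOH replicate 2. The list's median difference was 0.12 log2 with all arrays and -0.00 without ETOH replicate 2.

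Lipid metabolism was the longest list, with 39 promoters. At an unadjusted p under 0.05, 6 were higher (15.4%, beside 6.33% of all promoters) and 1 lower (2.56%, beside 1.33%). None passed, and the median difference was 0.07 log2, or -0.04 without ETOH replicate 2. Apob, the structural protein of very low density lipoprotein, had 0.25, 1.07 and 0.37 log2 in ETOH arrays, against 0.04, 0.13 and 0.05 in CHO arrays. Dgat1, which completes triglyceride synthesis, had 0.16, 0.79 and 0.05 in ETOH arrays, against -0.20, 0.04 and -0.02 in CHO arrays. Neither gene's groups overlapped, and without ETOH replicate 2 the differences of 0.49 and 0.40 were 0.24 and 0.17. The lower one was Me1, the malic enzyme that supplies NADPH for fatty acid synthesis, with 0.06, -0.28 and 0.06 in ETOH arrays, against 0.54, 0.34 and 0.17 in CHO arrays and a difference of -0.41.

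In methionine and amino acid metabolism, 1 of 21 promoters was higher and 1 lower at an unadjusted p under 0.05. This is 4.76% each, beside 6.33% higher and 1.33% lower of all promoters. Cbs, which begins the conversion of homocysteine to cysteine, had 0.16, 0.91 and -0.06 log2 in ETOH arrays, against -0.02, -0.03 and -0.24 in CHO arrays. Mat2b, the regulatory subunit of methionine adenosyltransferase 2, had 0.06, -0.01 and -0.07 in ETOH arrays, against 0.25, 0.24 and 0.59 in CHO arrays. The Mat2b groups did not overlap, and its difference of -0.37 was -0.36 without ETOH replicate 2, while that of Cbs was 0.43 with that array and 0.14 without it. In glucose metabolism 3 of 18 were higher (16.7%, beside 6.33% of all promoters) and 0 lower. Pygl, the liver glycogen phosphorylase, had 0.14, 1.06 and 0.21 in ETOH arrays, against -0.09, -0.12 and 0.07 in CHO arrays. Its difference was 0.51, and 0.22 without ETOH replicate 2. The region of Apex2 and Pfkfb1 (Pfkfb1 regulates glycolysis in liver) had 0.18, 0.47 and 0.33 in ETOH arrays, against -0.18, 0.10 and -0.04 in CHO arrays. Pck1, the first committed enzyme of gluconeogenesis, had a difference of 0.35, and of 0.16 without ETOH replicate 2. The list's median was 0.11 log2, and -0.01 without that array. No promoter of these 2 lists passed.

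Among 28 promoters of acute phase and plasma proteins, 2 were higher (7.14%, beside 6.33%) and 0 lower at an unadjusted p under 0.05, and none passed. Crp, the pentraxin C-reactive protein, had 0.31, 1.31 and 0.13 log2 in ETOH arrays, against -0.27, -0.05 and 0.06 in CHO arrays. Its groups did not overlap, and ETOH replicate 2 lay about 1 log2 above the other ETOH arrays. The difference was 0.67 ± 0.23, and 0.31 without that array. It was 0.67 with a 1000 bp window and 0.001 over the tiled region. Serpinc1, which codes for antithrombin, had 0.31, 0.86 and 0.19 in ETOH arrays, against -0.23, -0.25 and 0.34 in CHO arrays, with CHO replicate 3 inside the ETOH range and a difference of 0.50, or 0.29 without ETOH replicate 2. The region of the complement genes C4a and C4b had a difference of 0.39, and of 0.05 without ETOH replicate 2, and near-identical copies such as these may share probes.

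Liver transcription factors and the genes known to respond first to hepatectomy were measured here before the operation. Of 19 liver transcription factor promoters, 1 was higher (5.26%, beside 6.33% of all promoters) and 0 lower at an unadjusted p under 0.05. It was Hhex, a homeobox factor of liver development, with 0.48, 1.45 and -0.01 log2 in ETOH arrays, against -0.18, 0.31 and -0.05 in CHO arrays. The Hhex difference was 0.62, and 0.21 without ETOH replicate 2. Of 31 immediate early promoters 2 were higher (6.45%, beside 6.33% of all promoters) and 0 lower. Dusp1, a phosphatase that switches off MAP kinases, kept its groups apart with 0.19, 0.86 and 0.30 in ETOH arrays, against 0.07, 0.01 and 0.02 in CHO arrays. Its difference was 0.42, and 0.21 without ETOH replicate 2. Errfi1, a feedback inhibitor of the EGF receptor, had 0.18, 1.83 and -0.06 in ETOH arrays, against 0.09, 0.28 and -0.25 in CHO arrays. The Errfi1 difference of 0.61 was 0.02 without ETOH replicate 2, which lay above the next array by over 1 log2. The median of the immediate early list was 0.17 log2, and -0.07 without ETOH replicate 2.

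Growth factor signalling held 0 promoters higher and 2 lower at an unadjusted p under 0.05, of 28 (7.14% lower, beside 1.33%). Sos1, an activator of Ras, had 0.64, -0.17 and 0.06 log2 in ETOH arrays, against 0.67, 0.67 and 0.83 in CHO arrays. ETOH replicate 1 lay just below the lowest CHO array and the other ETOH arrays far below. The difference was -0.55 ± 0.18, and -0.37 without ETOH replicate 2. The other was Areg, an EGF receptor ligand, with 0.31, -0.32 and 0.06 in ETOH arrays, against 0.20, 0.13 and 0.62 in CHO arrays, and here the groups overlapped. The Areg difference was -0.30, and -0.13 without ETOH replicate 2. Grb2, the adaptor that brings Sos1 to receptors, had 0.45, 1.05 and 0.23 in ETOH arrays, against -0.19, 0.31 and 0.35 in CHO arrays, with a difference of 0.42, or 0.18 without that array. No promoter of the list passed.

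Of 25 cell cycle promoters 2 were higher and 2 lower at an unadjusted p under 0.05 (8% each, beside 6.33% higher and 1.33% lower), and none passed. Ccne1, the cyclin E that drives entry into S phase, had 0.06, 0.85 and 0.31 log2 in ETOH arrays, against -0.34, -0.21 and 0.03 in CHO arrays. Cdkn2c, an inhibitor of CDK4 and CDK6, had 0.44, 0.24 and 0.04 in ETOH arrays, against 0.54, 0.54 and 0.72 in CHO arrays. Both kept their groups apart, in opposite directions, with differences of 0.58 and -0.36, or 0.36 and -0.36 without ETOH replicate 2. In apoptosis and survival 2 of 22 were higher (9.09%, beside 6.33%) and 0 lower. Casp8, the initiator caspase of death receptors, had 0.03, 0.69 and 0.24 in ETOH arrays, against -0.27, -0.04 and -0.10 in CHO arrays, without overlap and with a difference of 0.46, or 0.27 without ETOH replicate 2. Cflar, its inhibitor and an NF-kB target, had 0.08, 0.64 and 0.25 in ETOH arrays, against -0.16, -0.30 and 0.38 in CHO arrays, with overlap and a difference of 0.35, or 0.19 without that array. Birc2, an inhibitor of apoptosis, had a difference of 0.28, which was 0.09 without ETOH replicate 2, -0.08 with a 1000 bp window and -0.02 over the tiled region. The list's median was 0.11 log2, and -0.04 without ETOH replicate 2.

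The comparison lists gave counts like those of the other lists. Of 30 ribosome and translation promoters 2 were higher (6.67%, beside 6.33%) and 0 lower at an unadjusted p under 0.05, with a median of 0.11 log2, or -0.03 without ETOH replicate 2. Of 27 testis and neuronal promoters 2 were higher (7.41%) and 0 lower, with a median of 0.09, or 0.02 without it. Markers of liver cell types showed no shift that passed for any of 6 types. Hepatocyte markers had a median difference of 0.19 log2 over 11 promoters, Kupffer cell and macrophage markers 0.08 over 8, and stellate cell markers 0.05 over 11. Without ETOH replicate 2 these medians were 0.002, 0.06 and 0.07 in that order. At an unadjusted p under 0.05 hepatocyte and Kupffer cell markers had 0 promoters, and stellate cell markers 1 higher and 1 lower (9.09% each). Of all promoters 6.33% were higher and 1.33% lower. Endothelial markers had 0.24 over 6, and 0.06 without ETOH replicate 2. Tie1, an endothelial receptor, was the highest of them at 0.45, and 0.19 without that array. Cholangiocyte markers had 0.04 over 7, or -0.03 without it. Lymphocyte and neutrophil markers had 0.07 over 15, or 0.06 without it. The endothelial, cholangiocyte, and lymphocyte and neutrophil lists each had 1 higher promoter (16.7%, 14.3% and 6.67%) and 0 lower at that level. ChIP signal at a marker's promoter does not measure the number of cells, so the cell makeup of the lobes was not tested here. Over all 24 lists the median was above 0 in 24, between 0.03 and 0.24, and 20 lay above the median of all promoters. Without ETOH replicate 2 it was above 0 in 12 lists and below 0 in the other 12, between -0.07 and 0.07.

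**Figure D4:**
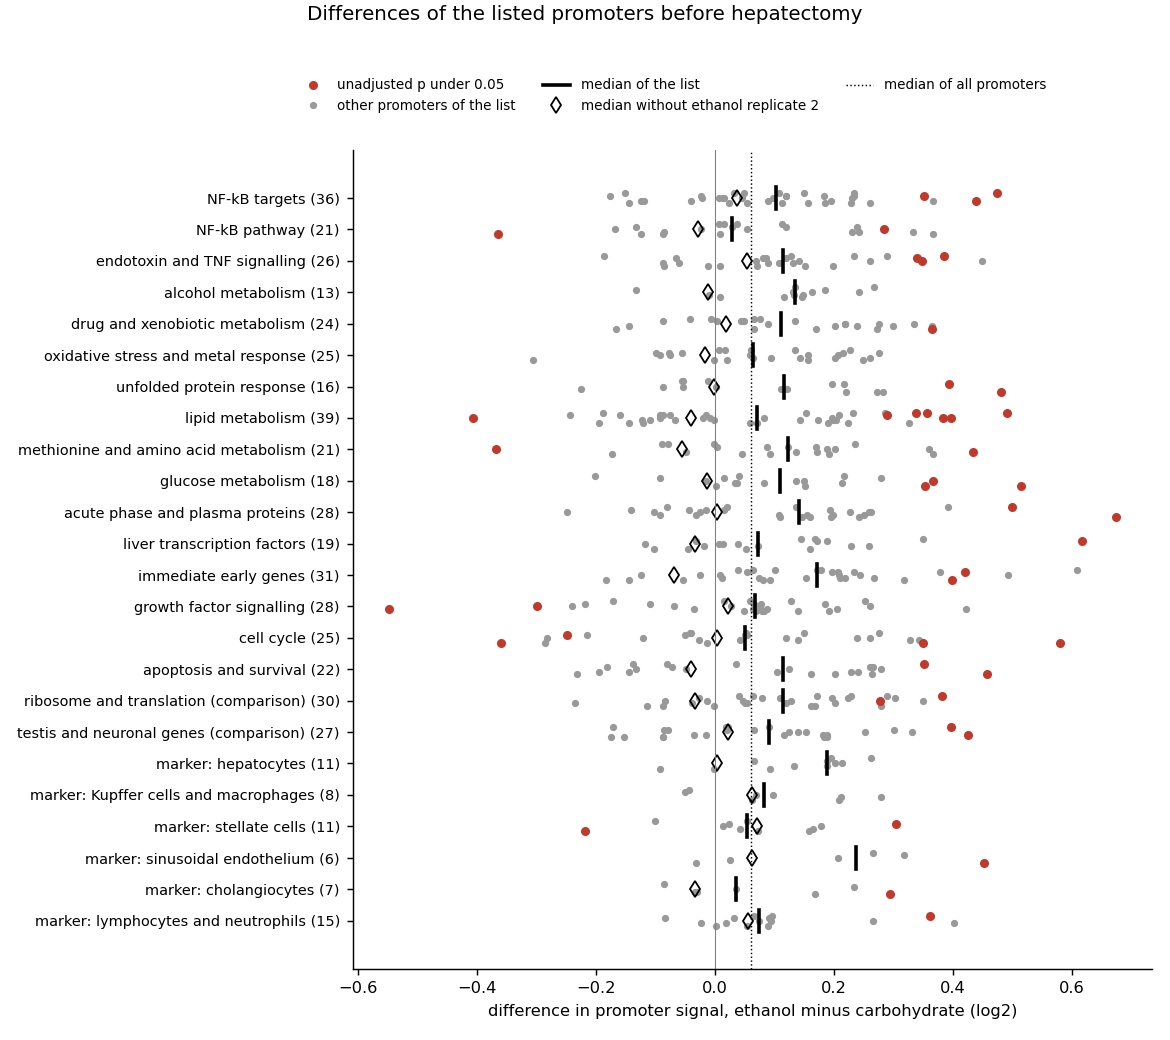
Difference in promoter signal (ETOH minus CHO, log2) of each promoter in the 24 lists, red at an unadjusted p under 0.05, with the list's median as a bar, its median without ETOH replicate 2 as a diamond and the median of all promoters, 0.06, as a dotted line. Every bar lies right of 0, and the diamonds lie on both sides of it, between -0.07 and 0.07.

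The peaks that the authors called on each array give a separate view, and they too did not separate the diets in number. Their scores and false discovery rates are the authors' own for each peak. There were 3457, 5907 and 4634 peaks in ETOH arrays, against 2874, 4069 and 6077 in CHO arrays. The means were 4666 ± 1225 in ETOH and 4340 ± 1619 in CHO (SD, n = 3 each; exact permutation p = 0.8, two-sided, where 0.1 is the smallest p that 3 against 3 can give). The order of the arrays mixed the diets, and CHO replicate 3 had the most peaks. Without ETOH replicate 2 the ETOH mean minus the CHO mean was -294.5 peaks, and without CHO replicate 1 it was -407. Median peak scores were 0.384, 0.724 and 0.383 in ETOH arrays, against 0.439, 0.359 and 0.453 in CHO arrays, and the high one was again ETOH replicate 2.

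Peaks lay within 500 bp of a listed start at 12.8%, 19.6% and 15.9% of peaks in ETOH arrays, against 11.4%, 22.2% and 15.6% in CHO arrays. The diets did not separate (exact permutation p = 1). Peaks 2000 bp or more from the start made up 34.2%, 32.5% and 40.2% in ETOH arrays, against 32.3%, 19.1% and 33.9% in CHO arrays. The means were 35.6% ± 4.06 in ETOH and 28.5% ± 8.11 in CHO (SD, n = 3 each; exact permutation p = 0.2), so the difference was not larger than the spread of the arrays allows to tell. CHO replicate 2 had the lowest share.

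Which genes carried a peak overlapped only in part between the diets. A gene is called bound in a diet here where at least 2 of its 3 arrays held a peak assigned to it. The deposited lists of all 20 arrays held 14356 genes, of which 3140 had no peak on the 6 arrays of 0h. Of the 14356, 2836 were bound in ETOH (19.8%) and 2960 in CHO (20.6%). Bound in both were 1134 genes (7.9%), which is 40.0% of the ETOH genes and 38.3% of the CHO genes. With 2 arrays left in a diet, both had to hold a peak: the ETOH genes were then 1224, 1446 and 1324 without ETOH replicates 1, 2 and 3, and the CHO genes 1894, 1368 and 1382 without CHO replicates 1, 2 and 3. Genes bound in both diets were 483, 720 and 569 without ETOH replicates 1, 2 and 3, and 577 and 565 without CHO replicates 2 and 3. No test is given per gene, since 3 arrays against 3 cannot pass after adjustment. Among NF-kB targets 7 of 37 were bound in ETOH and 8 of 37 in CHO, close to the shares of all genes. Among unfolded protein response genes 7 of 16 were bound in ETOH and 3 of 16 in CHO, and among apoptosis and survival genes 1 of 22 in ETOH and 6 of 22 in CHO. These counts are small and were read from 24 lists.

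Peaks on all 6 arrays were found at 136 genes (0.947%). The count is of genes: a peak anywhere in the tiled region counted, and neighbouring genes that share a peak count separately. Without ETOH replicate 2 it was 296 genes, without ETOH replicate 3 209, and without CHO replicate 1 259. Among the highest promoter signals at these genes were those of Ube2r2, a ubiquitin-conjugating enzyme, and Or2y15, an olfactory receptor. Ube2r2 had 0.65, 1.13 and 1.28 log2 in ETOH arrays, against 0.42, 0.98 and 0.78 in CHO arrays. The order of the diets was mixed at Ube2r2. Axin1, a scaffold of the Wnt pathway, had 1.20, 0.85 and 0.55 in ETOH arrays, against 0.63, 0.83 and 0.76 in CHO arrays. Also in this group were Sccpdh, Amhr2, the receptor for anti-Müllerian hormone, Rnase4, Zfp800 and Faf1. Of 466 genes on any list that are in the peak lists, 5 had a peak on all 6 arrays: Ahr, the aryl hydrocarbon receptor, Hadha and Pparg of fat metabolism, Axin1 and Hand2.

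At some of these genes the peak reached into the promoter next to the start. The sequences of 250 bases before the start (GRCr8, RefSeq) are printed for 2 genes with such a peak on all 6 arrays, Or2y15 and Wdr13, and for 1 with it on the CHO arrays alone, Pgk2. None of them holds the consensus, so no letters are capitals.
Or2y15, chr10:34208155-34208404 (+): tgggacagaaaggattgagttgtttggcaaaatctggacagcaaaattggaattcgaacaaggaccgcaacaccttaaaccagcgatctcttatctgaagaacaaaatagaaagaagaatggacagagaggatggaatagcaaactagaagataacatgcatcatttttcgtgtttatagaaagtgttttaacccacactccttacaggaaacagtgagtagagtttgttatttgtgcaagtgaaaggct
Wdr13, chrX:17034565-17034814 (+): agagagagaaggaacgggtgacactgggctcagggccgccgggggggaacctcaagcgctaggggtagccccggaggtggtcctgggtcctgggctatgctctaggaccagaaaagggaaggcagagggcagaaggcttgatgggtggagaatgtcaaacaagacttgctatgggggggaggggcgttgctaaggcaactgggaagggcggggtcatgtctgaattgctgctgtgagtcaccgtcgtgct
Pgk2, chr9:27976663-27976912 (+): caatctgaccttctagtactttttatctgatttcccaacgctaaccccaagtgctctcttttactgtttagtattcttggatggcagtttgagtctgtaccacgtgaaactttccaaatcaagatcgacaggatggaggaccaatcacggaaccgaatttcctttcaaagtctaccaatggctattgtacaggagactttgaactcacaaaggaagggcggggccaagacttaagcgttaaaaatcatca
The Or2y15 promoter is rich in A and T (38.3% GC over 300 bases), and that of Wdr13, a WD-repeat protein, is rich in G and C (61.7%). The Or2y15 peak spanned the start on all 6 arrays, while the Wdr13 peaks ended upstream of it, between -223 and -29 bp. At Or2y15 the signal over the start was 1.69, 0.73 and 0.59 log2 in ETOH arrays, against 0.91, 0.76 and 1.12 in CHO arrays. At Wdr13 it was 0.55, 0.91 and 0.53 in ETOH arrays, against 0.30, 0.49 and 0.52 in CHO arrays. The diets did not separate at Or2y15, and at Wdr13 the ETOH arrays lay just above the CHO arrays. At Pgk2, the phosphoglycerate kinase of testis, it was 0.24, 0.07 and 0.21 in ETOH arrays, against 0.55, 0.33 and 0.42 in CHO arrays. The Pgk2 groups did not overlap, but its peak was weak, with false discovery rates of 0.187, 0.0921 and 0.143 on the 3 CHO arrays. The consensus was found in 3.77% of 106 promoters of genes with a peak on all 6 arrays, beside 4.16% of all promoters. The search covered only 250 bases before to 50 after the start. Of 133 such genes with a measured start, 46 (34.6%) had a peak over that stretch on any array. Sequence under peaks elsewhere was not searched, so this share does not say whether those peaks hold the consensus.

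Peaks on all 3 arrays of 1 diet and none of the other were found at 77 genes in ETOH (0.536%) and at 125 in CHO (0.871%). Without ETOH replicates 1, 2 and 3 the ETOH genes were 323, 158 and 294 and the CHO genes 249, 202 and 225. Without CHO replicates 2 and 3 the ETOH genes were 137 and 184, and without CHO replicates 1, 2 and 3 the CHO genes were 375, 261 and 284. In ETOH the highest scores were at Tbc1d20, which codes for a GTPase-activating protein of Rab proteins, and Klhl26. Tbc1d20 peaks scored 0.44, 1.33 and 0.47 and were centred between -803 and -748 bp from the start. The promoter signal there was 0.58, 1.26 and 0.49 log2 in ETOH arrays, against -0.27, 0.19 and 0.29 in CHO arrays. Klhl26 peaks scored 0.64, 0.96 and 0.41, with a promoter signal of 0.62, 0.88 and 0.48 in ETOH arrays, against -0.05, 0.15 and -0.20 in CHO arrays. Both showed ETOH replicate 2 highest and no overlap of the diets, and both windows overlap the peaks that chose the genes. The others among the 10 highest mean scores were Syt10, Dok7, Dhx37, Glp1r, the receptor for glucagon-like peptide 1, Rcvrn, Prickle2, Kcna7 and Tnpo2. The promoter signal of the diets overlapped at Syt10, Dok7, Glp1r and Tnpo2, with differences of 0.29, -0.02, 0.08 and 0.08 log2. It did not overlap at the other 6 of the 10 genes. At Dhx37, Rcvrn, Prickle2 and Kcna7 too the window overlaps a peak that chose the gene, so this separation is not a second measurement. Over all promoters, ETOH arrays lay wholly above CHO arrays at 6.4%. At Dhx37 and Rcvrn, 1 of the 3 arrays had its peak on the other side of the start. Of 466 list genes, Ccl5 and Ptprc, the leukocyte antigen CD45, were in this group.

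In CHO the 10 genes with the highest mean scores were Fbxo4, Rps3, Ube2j1, Dr1, Gabpb1, C8h11orf54 and Taf1d (1 shared peak), Selenos, C4h12orf60 and Sod1. At Fbxo4 and Ube2j1 the peaks of the CHO arrays lay on both sides of the start. The Selenos peaks were centred at -3466, -736 and -789 bp. Rps3, a protein of the small ribosomal subunit, had its peak centred at -385 bp on all 3 CHO arrays, with scores of 0.59, 0.63 and 0.57. Sod1 had its peak 808 to 845 bp downstream of the start, with scores of 0.40, 0.56 and 0.73. Its promoter window, given above, covers the probes of this peak, so the lower signal in ETOH arrays there is the same measurement that chose the gene. Gabpb1, a subunit of the ETS-type factor GABP, had peaks scoring 0.58, 0.63 and 0.54. Its promoter signal was 0.17, 0.38 and 0.32 log2 in ETOH arrays, against 0.55, 0.62 and 0.49 in CHO arrays. The Gabpb1 window overlaps the peaks that chose the gene. At Rps3 the promoter window lies elsewhere and gave 0.20, 0.38 and 0.18 in ETOH arrays, against 0.03, 0.01 and 0.48 in CHO arrays, with overlap. The signal also overlapped at Fbxo4, Ube2j1, Dr1 and Selenos. Of 466 list genes, Sod1 and Rps3 were in this group.

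**Figure D5:**
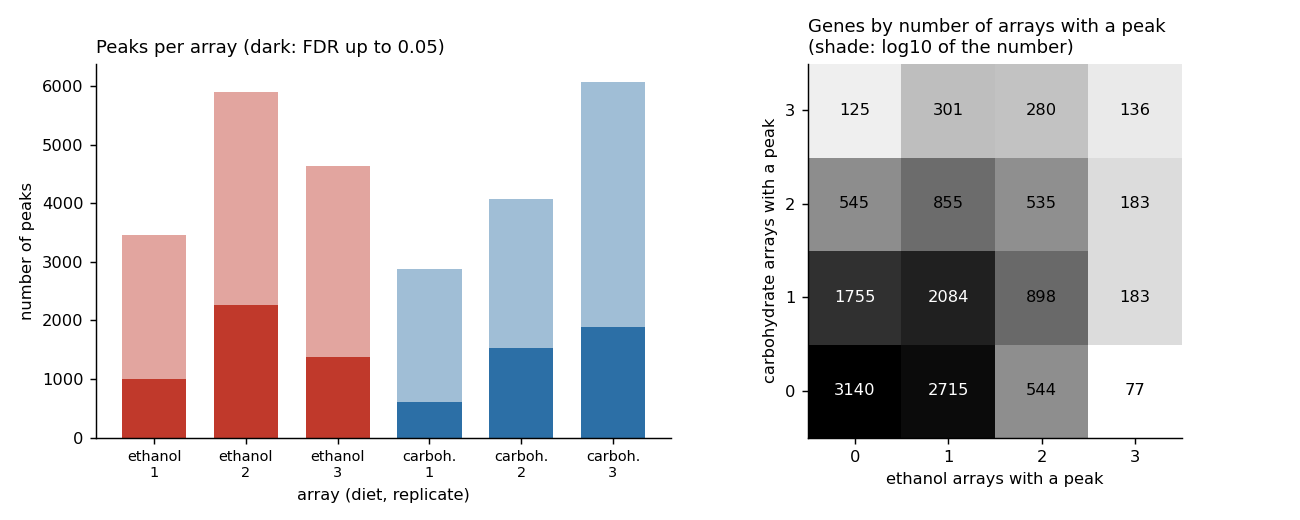
Left, called peaks per array, ETOH left of CHO, with the dark part of each bar at a false discovery rate up to 0.05. Right, genes by the number of ETOH arrays (x axis) and CHO arrays (y axis) with a peak, shaded by the log10 of their number. The number of peaks runs from 2874 to 6077, both extremes being CHO arrays, and 1134 genes were bound in both diets.

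Later arrays were not used to choose these genes, although 4 of the animals gave arrays at both times. ETOH replicate 2, which took part in the choice, shared its slide with an ETOH and a CHO array of 1h. Its promoter signal correlated with theirs at 0.75 and 0.69, so the shares at 1h are not independent of the choice. Of the 77 genes with peaks in ETOH alone at 0h, 55.8% were bound on at least 2 arrays in ETOH at 1h and 46.8% in CHO at 1h. At 6h the shares were 36.4% in ETOH and 40.3% in CHO. Over all genes these shares were 41.6% in ETOH and 28.8% in CHO at 1h, and 30.2% in ETOH and 39.6% in CHO at 6h. Of the 125 genes with peaks in CHO alone, 51.2% were bound in ETOH at 1h and 10.4% in CHO at 1h, then 26.4% in ETOH and 36% in CHO at 6h. The 136 genes with a peak on all 6 arrays were bound in 83.8% in ETOH and 52.2% in CHO at 1h, and in 60.3% in ETOH and 63.2% in CHO at 6h. No test was made of these shares.

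Whether the diet difference at 0h differed from that after the operation was tested in the same limma fit. Against 1h, 0 promoters passed (lowest adjusted p = 0.0823), and 1371 (9.43%) had an unadjusted p under 0.05, 749 of them with a higher difference at 0h and 622 with a lower one. The count was 896 without ETOH replicate 2, with 302 higher and 594 lower. The split was 646 higher and 774 lower with the arrays scaled, and 1028 higher and 1726 lower with the mean of the tiled region. Against 6h, 0 passed (lowest adjusted p = 0.290), and 1965 (13.5%) had an unadjusted p under 0.05, 1898 higher and 67 lower. This count was 1122 without ETOH replicate 2 (1075 higher, 47 lower), 1110 without CHO replicate 1, 1182 without CHO replicate 2 and 3161 without CHO replicate 3. With the mean of the tiled region it was 1232, of which 534 were higher and 698 lower. At Pbld1 the diet difference was 0.86 log2 at 0h, -0.29 at 1h and -0.05 at 6h (limma adjusted p = 0.212 for 0h against 1h). At Smad2 it was -0.62 at 0h, 0.11 at 1h and -0.16 at 6h (limma adjusted p = 0.432 for 0h against 1h). Both were named for their difference at 0h, and neither contrast passed. The comparisons with 1h and 6h share the 6 arrays of 0h. The count against 6h depended on how the arrays were weighted: 2240 promoters passed with array weights, and 41 without CHO replicate 3.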

How the data were processed

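p65 ChIP-chip was measured on 20 two-colour NimbleGen arrays, 6 of them at 0h (3 ETOH, 3 CHO). The deposited values of the authors are log ratios per probe, taken here as log2 from their range, with array medians near 0. How they were scaled is not given in the sources used here, nor are the genome build and the peak caller. The authors deposited 1 peak list per array, called on single arrays, with a score per peak and, per the file headers, a false discovery rate (a p-value-like number up to 0.2).

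The members and gene lists were chosen with earlier results of these data known, some of the lists in a previous analysis of them. Values were multiplied by -1 and centred on each array's median. Probes less than 1000 bp apart were joined into regions, and the 500 bp window (at least 4 probes) with the highest mean over all 20 arrays gave the promoter signal. Gene names came from the accessions in the peak lists, of which 13678 of 14678 matched RefSeq, and 13265 promoters had a name (1149 with several genes). limma 3.58.1 in R 4.3.3 fitted 6 group means over all 20 arrays (eBayes with trend), and p-values were adjusted by Benjamini-Hochberg over all 14540 promoters, with calls at an adjusted p under 0.05. The fit was also run on simulated promoters, with independent noise of the same spread on all arrays. That setting had no outlying array and no shared slide or animal, so it does not test the fit under those conditions. Peaks per array were compared with exact permutation tests (scipy 1.17.1). Array number, 3 a group, limits the precision; the labels speak of biological replicates, but 4 animals gave 2 arrays each.

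Promoters were named by rule: the 10 smallest p in each direction where fewer pass, the 10 highest mean peak scores on all arrays of 1 diet and none of the other, the 10 highest signals with peaks on all 6 arrays, the 3 largest absolute differences in each list, and Nfkbia, Tnf, Cyp2e1, Adh1 and Aldh2. Some promoters under this rule are not reported here. Genes shown for their sequence (Cxcl1, Nfkb2, Ccl20, Wdr13 and Pgk2) and list genes with peaks on all 6 arrays were chosen after their values were seen. Alternatives were other scalings, windows, array weights, run as a term, blocks for slide, replicate number, identifier pair and animal, stricter peaks, and leaving out each array. Animal, slide series and the promoter start window were added after the data had been seen.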

Additional observations from a re-analysis of the deposited data

How the results depend on the processing

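No promoter passed at 0h under most alternatives; 4 did after equalising the spread of the arrays, 4 with quantile normalization, 9 with array weights, and 0 to 6 when each array was left out in turn (6 without ETOH replicate 1). The samples share replicate numbers, but deviations of same-numbered arrays correlated at 0.04, 0.36 and 0.41, and the first pair's is under 0.1. The numbers were therefore not shown to pair, and with the replicate block 0 promoters passed. Animal identifiers that differ by 2 may mark pairs, which the labels do not say, and deviations of these correlated at -0.18, 0.17 and 0.41. With them as a block 0 promoters passed (lowest limma adjusted p = 0.125). At an unadjusted p under 0.05, 909 were higher and 115 lower. The main fit was unpaired. The difference of 0h from 1h gave 2 (scaled), 2 (quantile), 1 (array weights), 1 (run as a term) and 2 (slide as a random block), and 0 without any 1 array. That from 6h gave 2240 with array weights and 0 to 41 without 1 array. The cause was not tested.

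Bound genes in ETOH, in CHO and in both numbered 605, 703 and 150 at a false discovery rate up to 0.05, 1580, 1944 and 595 with 2874 top peaks per array, and 988, 1316 and 329 within 1000 bp of the start. Peaks in ETOH alone, in CHO alone and on all 6 arrays numbered 7, 24 and 9, then 31, 96 and 39, then 14, 79 and 36, in that order of settings. Without 1 array the ranges were 1224 to 2836 (ETOH), 1368 to 2960 (CHO), 483 to 824 (both), 93 to 323 (ETOH alone), 202 to 375 (CHO alone) and 161 to 296 (all arrays left), since fewer arrays had to agree or could disagree. The difference in peaks per array was -145.3 within 1000 bp, and -407 to 1194.5 without 1 array.

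Differences (ETOH minus CHO, log2) that turned sign among promoters named for their difference, from a list or as one of the 5 fixed genes were these. A 1000 bp window gave Thap1 0.078, Nfkbia -0.044, Lyc2/RGD1306474 -0.028 and Birc2 -0.084. The mean of the tiled region gave Cyp2e1 -0.087, Por -0.0069, Aldh2 -0.020, Ticam2 -0.058, Aqp1 -0.025, Nfkbia -0.031, Birc2 -0.022 and Timp1 0.0028. Array weights gave Aldh3a2 -0.0050, Cdh5 -0.059, C1qb -0.012 and Dapk3/Eef2/Pias4 -0.12. Run as a term, which takes out ETOH replicate 2, gave Aldh3a2 -0.11, Aldh2 -0.024, Traf2 -0.0078, Cdk5/Slc4a2 -0.035, Tnfrsf1a -0.023, C1qb -0.082, Dapk3/Eef2/Pias4 -0.22 and Tab1 -0.091. Equal spread together with ETOH replicate 2 left out, chosen after seeing the data, gave Aldh3a2 -0.15, Aldh2 -0.0074, Cdh5 -0.0065, Cdk5/Slc4a2 -0.063, Tnfrsf1a -0.030, C1qb -0.14, Dapk3/Eef2/Pias4 -0.30 and Tab1 -0.11. Slide series as a block, also chosen after seeing the data, gave Aldh3a2 -0.11, G6pc1 -0.040, Aldh2 -0.0044, Traf2 -0.020, Cdk5/Slc4a2 -0.067, C1qb -0.040, Dapk3/Eef2/Pias4 -0.16 and Tab1 -0.057. Leaving out 1 array in turn gave Aldh2 -0.024 to 0.44, Aldh3a2 -0.11 to 0.36, C1qb -0.082 to 0.42, Cdk5/Slc4a2 -0.035 to 0.39, Dapk3/Eef2/Pias4 -0.22 to 0.71, Nfkbia -0.16 to 0.21, Tab1 -0.091 to 0.59, Tnfrsf1a -0.023 to 0.80 and Traf2 -0.0078 to 0.59. Scaling or quantile normalization of all arrays turned the sign of none of these promoters. Promoters named for their peaks alone were not recomputed under every alternative; of these, scaling turned Rnase4 (-0.10, beside 0.13) and Tnpo2 (-0.077, beside 0.084), and quantile normalization gave -0.047 and -0.056 in that order.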
